A study of Mus musculus with 4 samples.

Results

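DNA repair and meiotic recombination genes were followed in mouse female germline stem cells (FGSCs) after knockdown of the long non-coding RNA Gm26917. The genes were chosen by name alone: protein-coding symbols of the Fanconi anaemia, Rad, Xrcc, Brca, Msh, Mlh, Pms, Lig, Ercc, Neil and DNA polymerase families, together with Brip1, Bard1, Blm, Exo1, Psmc3ip, Meiob and Mnd1, with 1 row per symbol on a chromosome. This gave 79 of the 12701 genes listed. A further 4 symbols of the mouse annotation fit the names and were not listed, namely Fancd2os, Msh4, Neil2 and Rad51ap2. The FGSCs are a cultured line derived from ovary. Of 4 libraries, 2 were from cells with a control hairpin (shNC) and 2 from cells with a short hairpin RNA directed at Gm26917 (shGm26917). Per the study's methods, the hairpins were delivered by lentivirus and infected cells were selected with puromycin or blasticidin, so that both groups had been infected and selected. The sources used here do not say which of the study's hairpin sequences against Gm26917 was taken, nor whether libraries of a group stem from different cultures. The p-values therefore speak only of the spread from library to library. Of the 79 genes, 6 were set apart under the label matched by name only: Blmh, Ercc6l, Ercc6l2, Rad54l2, Poldip2 and Poldip3. The label does not mean that they have no part in DNA repair.

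Cells mend damaged DNA by several routes. Excision pathways remove altered or mispaired bases and refill the gap, end joining rejoins broken ends directly, and homologous recombination copies the missing sequence from an intact duplex. In germ cells, meiosis uses the recombination machinery on breaks that the cell makes itself, with added proteins that act only or mainly there, and the Fanconi anaemia proteins, which handle crosslinks between DNA strands, are known to be needed for normal germ cell numbers.

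Expression is given as CPM, a read share brought to the same total in each library. The listed genes summed to between 755159 and 771715 CPM per library. At the targeted locus, Gm42418 went from 2882 and 3462 CPM in shNC to 729 and 687 CPM in shGm26917 (log2 fold change -2.16, limma adjusted p = 5.57e-05). Gm26917 as annotated had 155 and 157 CPM against 136 and 104 CPM and did not pass (log2 fold change -0.39, adjusted p = 0.0696). The paper treats these as separate lncRNAs and reports its Gm26917 knockdown by RT-qPCR. Of 10 germ cell markers, 2 were listed, Ifitm3 and Zbtb16, and Ddx4 and Dazl were not; 3 of 8 mast cell markers were listed with a summed level of 969 to 1193 CPM, 6 of 6 fibroblast markers with 373 to 440 CPM, and 1 of 6 granulosa cell markers with 14.7 to 33.3 CPM. Ifitm3 fell from 86.8 and 99.6 CPM in shNC to 52.9 and 52.6 CPM in shGm26917 (log2 fold change -0.81, limma adjusted p = 0.000903). Zbtb16 did not pass. Of the mast cell markers, Cpa3 rose from 490 and 541 CPM to 734 and 823 CPM, Gata2 and Ms4a2 fell, and Fcer1a and Mcpt4 were not listed. Most markers of the labelled germ cell type were thus not listed here, where no gene is under 1.003 CPM in its second-highest library. For its FGSCs the paper reports RT-PCR of Oct4 (Pou5f1), Ddx4, Fragilis (Ifitm3) and Blimp1 (Prdm1), and immunofluorescence of DDX4 and OCT4. Of these genes, only Ifitm3 was listed here. Genes of the cell cycle moved with the groups. Of 10 S phase genes, 9 fell and 0 rose, with a summed level of 744 and 681 CPM with shNC against 507 and 493 CPM with shGm26917. Of 10 G2/M genes, 6 rose and 1 fell, with a summed level of 1357 and 1267 CPM with shNC against 1457 and 1409 CPM with shGm26917. Their part in the results below was not tested.

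Cells with the Gm26917 hairpin differed from control cells in a minority of the repair genes, and in both directions. Of the 79 genes, 10 rose and 5 fell (limma on log2(CPM + 0.5), Benjamini-Hochberg adjusted p under 0.05 over all genes), which is 19.0% of them, against 23.1% of all genes tested. By direction, 12.7% rose against 11.6% of all genes, and 6.33% fell against 11.5% of all genes. These shares lie near or below the background, so the repair genes as a whole did not stand out by their number of calls. The genes that rose included Meiob, Rad9b, Rad1, Mlh3, Polq, Ercc6l2, Poli, Polh and Lig3, and those that fell were Ercc1, Lig4, Lig1, Rad52 and Msh3. The median log2 fold change was -0.01, equal at this precision to the -0.01 of all genes, with 38 genes above 0 and 41 below. Changes were small: 50 of the 79 genes (63.3%) lay within 0.2 of no change on the log2 scale, against 57.8% of all genes. In 44 of the 79 genes (55.7%) the groups did not overlap, against 64.2% of all genes; shGm26917 was higher in 29.1% against 31.5% and lower in 26.6% against 32.7%. An unadjusted p under 0.05 was reached by 35.4% of the repair genes and 37.1% of all genes. In all 15 called genes the groups did not overlap, which adds no support to the calls because both rest on the same values. Meiob entered the table through its shGm26917 libraries alone, and without it 9 genes rose and the median was -0.02. With either the first or the second shGm26917 library left out, 8 of the 15 calls were kept. In bulk RNA, fewer cells of a type and less RNA per cell cannot be told apart.

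**Figure D1:**
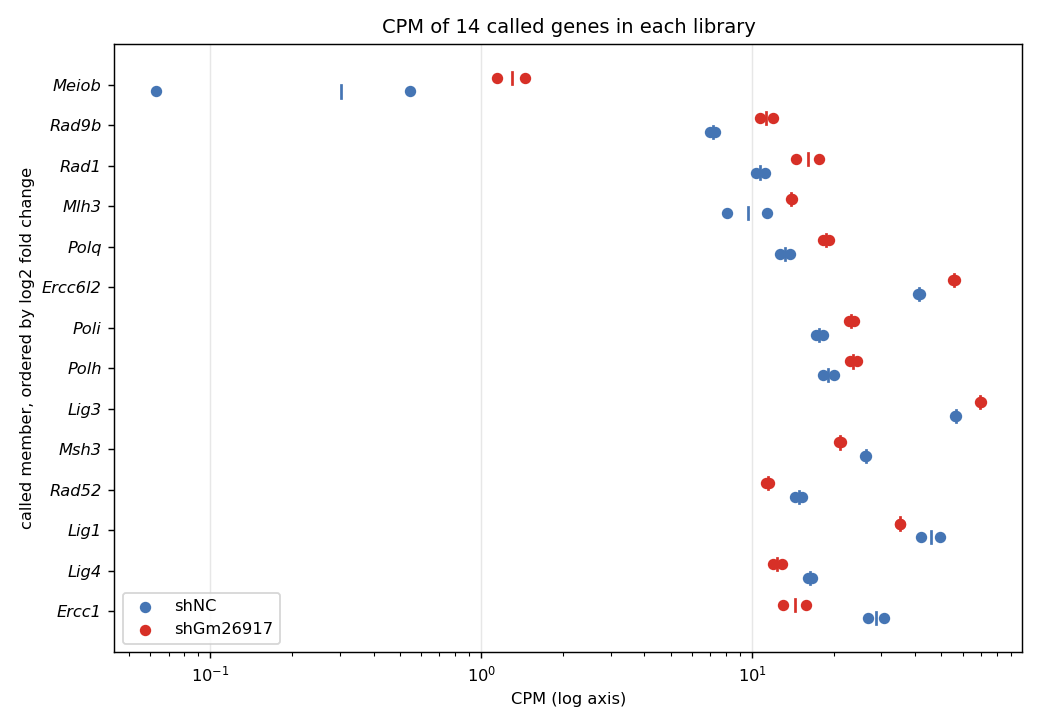
CPM of 14 of the 15 called repair genes, 1 point per library on a log axis, with a short bar at each group mean (blue, 2 shNC libraries; red, 2 shGm26917 libraries). In all 14 genes the points of the groups do not overlap, and Meiob, at the top, lies far below the other genes, under 2 CPM in all 4 libraries.

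**Figure D2:**
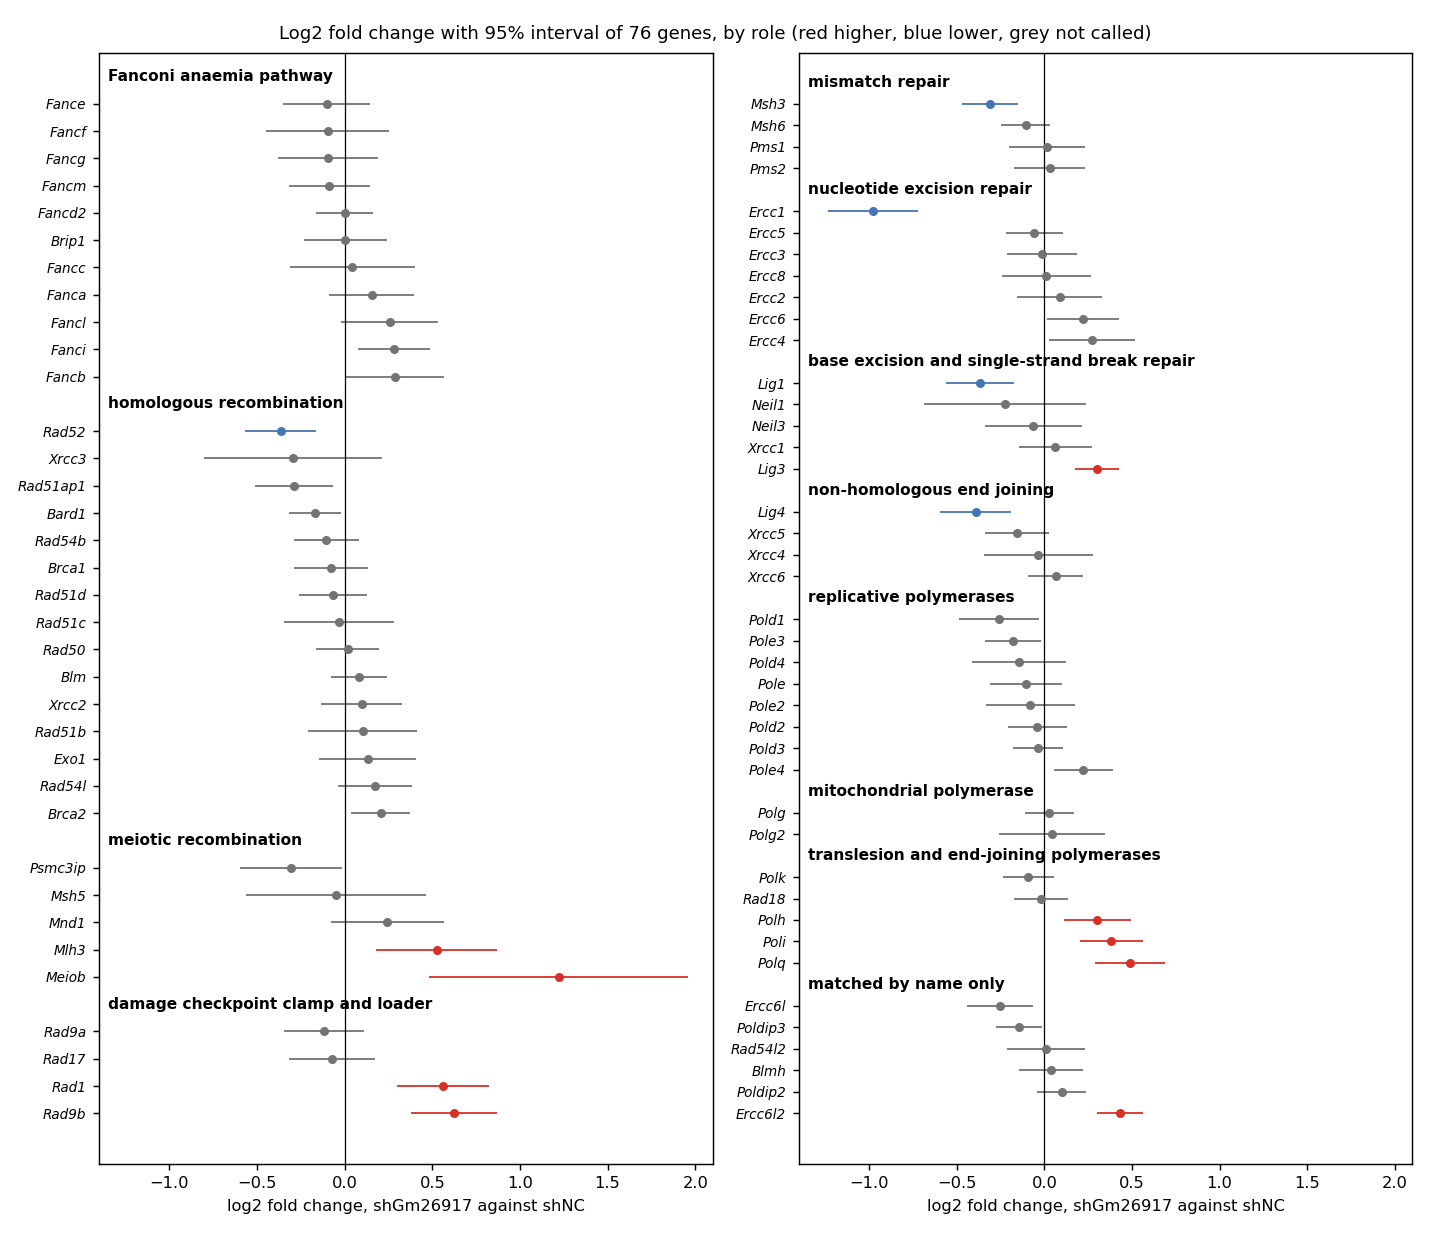
Log2 fold change of shGm26917 against shNC for 76 of the 79 genes (points) with its 95% interval from limma (lines), arranged by role; red genes rose, blue genes fell, grey genes did not pass. Most points sit close to 0, Ercc1 is the lowest at -0.98, and 3 of the 5 translesion and end-joining polymerase genes are red.

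**Figure D3:**
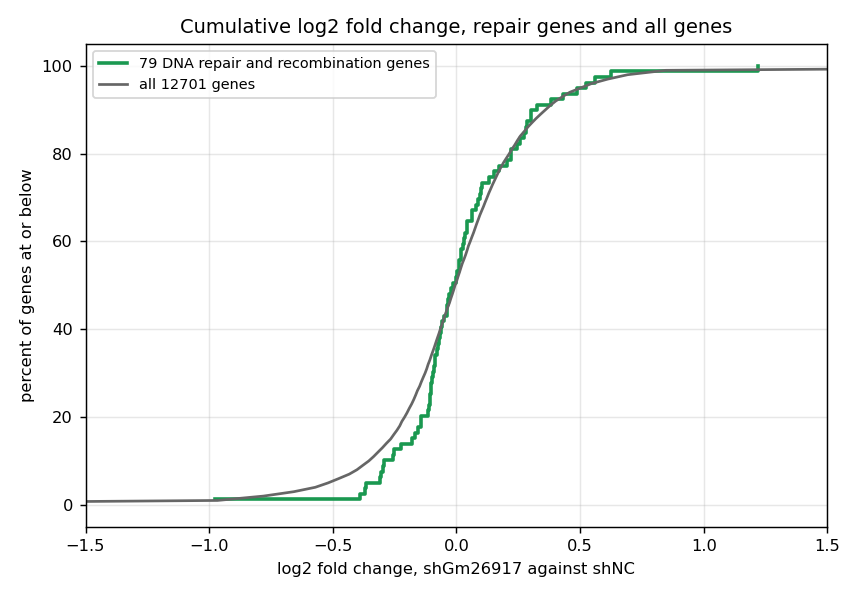
Percent of genes at or below each log2 fold change, for the 79 repair genes (green steps) and all 12701 genes (grey line). Both lines cross 50% near 0, and 5 of the repair genes lie past 0.5 in either direction.

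The repair genes were expressed over a wide range. At least 5 CPM was reached in every library by 70 of the 79, and 4 stayed under 2 CPM in every library, namely Meiob, Msh5, Neil1 and Xrcc3. Levels of different genes are compared here as CPM per kilobase of annotated exon. On that scale the shNC mean ran from 0.169 for Meiob to 16.3 for Msh6, with a median of 2.90. Pold2 at 14.5, Pold4 at 13.5, Pole3 and Rad50 at 13.4 each and Xrcc5 at 11.2 CPM per kilobase were also among the high ones. Of the genes with a mainly meiotic role, Mnd1 reached 5.91 and Msh5 0.227 CPM per kilobase. The sources used here do not state whether strand was used in counting, and 33 of the 79 genes, 6 of them called, share exon bases with another gene, so that reads of an overlapping gene cannot be told apart from theirs.

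Nucleotide excision repair cuts out a stretch of damaged strand. Of its 7 genes, 1 fell and 0 rose, and the median log2 fold change was 0.01. Ercc1, which forms with XPF (Ercc4) the nuclease that cuts on one side of the lesion and also serves crosslink repair, had 26.9 and 30.7 CPM with shNC against 15.8 and 13.0 CPM with shGm26917. It fell by 0.98 ± 0.11 on the log2 scale (SE; limma adjusted p = 0.00167), a fitted fold of 0.508. Both shGm26917 libraries were below both shNC libraries by a wide margin, and the call was kept under all 13 other settings tried. Its catalytic partner Ercc4 had 10.5 and 9.57 CPM with shNC against 11.5 and 13.0 CPM with shGm26917 and did not pass, at a log2 fold change of 0.27 ± 0.11 (adjusted p = 0.104). The Ercc1 to Ercc4 ratio of CPM was accordingly 2.55 and 3.21 in the shNC libraries and 1.37 and 1.0 in the shGm26917 libraries. Ercc1 lies on chromosome 7, 19344778 to 19356524 (mm10, plus strand), where 106 of its 3111 exon bases overlap Cd3eap on the opposite strand. Cd3eap rose, with a log2 fold change of 0.43 (adjusted p = 0.0424), against the direction of Ercc1.

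None of the other excision genes passed the adjusted threshold of limma, and Ercc4 and Ercc6 had an unadjusted p under 0.05. Ercc3, a helicase of the general factor TFIIH that opens the DNA around a lesion and was the most expressed of the group by mean CPM, had 31.9 and 27.3 CPM with shNC against 28.7 and 29.8 CPM with shGm26917, with overlapping groups. Ercc2, Ercc5 and Ercc8 had log2 fold changes between -0.06 and 0.09. Ercc6, the CSB protein of transcription-coupled repair, had a log2 fold change of 0.22 (adjusted p = 0.114).

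The 3 DNA ligase genes, gathered here from the base excision and end joining groups, all passed, in different directions. Of all genes, 23.1% passed. The 3 ligase genes were not a role of their own, so their count is a description. Lig3, whose product seals single-strand breaks with XRCC1 and is the ligase of mitochondria, had 56.8 and 56.0 CPM with shNC against 70.1 and 69.1 CPM with shGm26917. Lig3 rose by 0.30 ± 0.05 on the log2 scale (SE; adjusted p = 0.0084) and kept its call under all 13 other settings. Of its 7284 exon bases, 1826 (25.1%) overlap Rffl on the opposite strand, which had a log2 fold change of 0.28 and did not pass (adjusted p = 0.0631). Lig1, the ligase that joins Okazaki fragments and long repair patches, had 49.5 and 42.0 CPM with shNC against 35.3 and 35.1 CPM with shGm26917. The shNC libraries differed more from each other than the shGm26917 libraries did, and the groups did not overlap. Lig1 fell by 0.37 ± 0.08 (adjusted p = 0.0195), a call that was lost without the variance trend and robust option (adjusted p = 0.0775). Within each library the Lig3 to Lig1 ratio of CPM was 1.15 and 1.34 in shNC and 1.99 and 1.97 in shGm26917. Lig4, the ligase of non-homologous end joining, had 16.1 and 16.7 CPM with shNC against 12.8 and 11.9 CPM with shGm26917. It fell by 0.39 ± 0.09 (adjusted p = 0.0172), and without the second shGm26917 library it did not pass (adjusted p = 0.112). Of the 5 genes of base excision and single-strand break repair, 1 rose and 1 fell, Lig3 and Lig1. The median log2 fold change of the 5 was -0.06, and Xrcc1, the scaffold of ligase III, did not pass at 0.06.

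In non-homologous end joining, 1 of 4 genes was called, Lig4. The median log2 fold change was -0.09, and it became -0.19 without the first and -0.0019 without the second shNC library. Its scaffold partner Xrcc4 did not pass at -0.03, so that the Lig4 to Xrcc4 ratio went from 2.68 and 2.38 in shNC to 2.21 and 1.73 in shGm26917. Xrcc5 and Xrcc6 encode the Ku heterodimer that binds broken ends. Xrcc6, the most expressed by mean CPM, had 28.1 and 29.9 CPM with shNC against 30.6 and 30.1 CPM with shGm26917. Its log2 fold change was 0.06 (adjusted p = 0.529), and that of Xrcc5 was -0.15 (adjusted p = 0.196).

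Mismatch repair corrects errors left by replication. Of its 6 genes, 1 fell and 1 rose. The median log2 fold change was -0.04, and it became 0.05 without the first and -0.11 without the second shNC library. Msh3, a subunit of the MutS beta complex that binds larger loops, had 26.3 and 26.2 CPM with shNC against 21.2 and 20.9 CPM with shGm26917. Replicates lay close together and the groups were well apart. Msh3 fell by 0.31 ± 0.07 (adjusted p = 0.0179), but not past the threshold without the first (adjusted p = 0.0761) or the second shGm26917 library (adjusted p = 0.106). Msh6, which serves MutS alpha in binding single mismatches, had 72.8 and 68.9 CPM with shNC against 67.3 and 64.3 CPM with shGm26917 and did not pass at -0.11 ± 0.06 (adjusted p = 0.233). The MutL genes Pms1 and Pms2, which act after recognition, did not pass at 0.02 and 0.03.

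Promoter windows, 250 bases before to 50 bases after the annotated start, were taken from RefSeq (GRCm38.p6), where 62 of the 79 genes have one. They were searched for the E2F motif, named for the factors that drive many S phase genes. The letters searched were TTTCCCGC, TTTCGCGC, TTTGCCGC and TTTGGCGC on both strands. A match was found in 13 of the 62 genes (21.0%), against 4.91% of 9382 listed genes with a window and 2.6% of all 27025 genes with a window. By call, the 13 were 2 of the 5 genes that fell, Lig1 and Msh3, 0 of the 7 that rose and have a window, and 11 of 50 not called. Their median log2 fold change was -0.08, with 10 of 13 below 0. For the 49 genes with a window and no match the median was 0.03, with 21 below 0. Of all 12701 genes, 6461 lay below 0. Calls made up 15.4% of the 13, 20.4% of the 49 and 23.1% of all genes, so the genes with a match were not called more often. A match is a description and not a binding site. The window of Lig1 (chr7:13278576-13278875, plus strand) is shown in full because Lig1 fell, and capitals mark the motif.
Lig1: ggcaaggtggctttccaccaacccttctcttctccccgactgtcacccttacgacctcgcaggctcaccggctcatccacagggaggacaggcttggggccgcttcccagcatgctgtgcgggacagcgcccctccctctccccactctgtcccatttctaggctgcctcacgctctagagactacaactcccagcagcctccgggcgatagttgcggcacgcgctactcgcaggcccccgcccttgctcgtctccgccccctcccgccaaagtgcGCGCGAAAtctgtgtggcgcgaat
For comparison, 30 bases around the match are given for 4 genes that were not called. Msh6 (chr17:87975054-87975083, plus strand) and Pold1 (chr7:44548766-44548795, minus strand) had log2 fold changes below 0, and Pole4 (chr6:82652890-82652919, minus strand) and Brca2 (chr5:150522442-150522471, plus strand) above 0.
Msh6: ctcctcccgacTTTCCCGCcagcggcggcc
Pold1: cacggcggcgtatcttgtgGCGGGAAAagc
Pole4: ctctacccggcGCGGGAAAggggccgaaat
Brca2: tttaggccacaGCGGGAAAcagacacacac
These 4 windows show both signs evenly, whereas of all 13 genes with a match 10 lay below 0 and 3 above. Any part of the motif in the changes was not tested. The CHR motif (TTTGAA, both strands) was in 9.68% of the 62 genes and 14.3% of the listed genes, and CCAAT (both strands) in 48.4% and 43.6%.

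Translesion polymerases copy past damaged bases, and polymerase theta joins broken ends through short matching stretches. Of these 5 genes, 3 rose and 0 fell, with a median log2 fold change of 0.30; 11.6% of all genes rose. Polq, which encodes polymerase theta, had 12.6 and 13.8 CPM with shNC against 19.1 and 18.3 CPM with shGm26917. It rose by 0.49 ± 0.09 (adjusted p = 0.00789), without overlap of the groups, and kept its call under all 13 other settings. Poli, a polymerase that inserts bases opposite lesions, had 17.1 and 18.2 CPM with shNC against 23.7 and 22.7 CPM with shGm26917. It rose by 0.38 ± 0.08 (adjusted p = 0.0128) and did not pass without the first shGm26917 library (adjusted p = 0.0723). Polh, the polymerase that reads through ultraviolet dimers, had 20.0 and 18.2 CPM with shNC against 23.0 and 24.3 CPM with shGm26917. It rose by 0.30 ± 0.08 (adjusted p = 0.0345), a call lost without the second shNC library (0.0648), the first shGm26917 library (0.0788) or the second (0.196). The remaining members of the group lay close to 0. Polk, the most expressed by mean CPM, had 40.7 and 43.0 CPM with shNC against 39.9 and 38.6 CPM with shGm26917 (log2 fold change -0.09, adjusted p = 0.327). Rad18, the ubiquitin ligase that marks the sliding clamp for these polymerases, did not pass at -0.02.

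The replicative polymerases delta and epsilon, which copy the bulk of the genome, gave no call among 8 genes. Their median log2 fold change was -0.09, and 7 of 8 values were below 0, as were 6461 of all 12701 genes. An unadjusted p under 0.05 was reached by 3 of the 8, Pold1, Pole3 and Pole4, and by 37.1% of all genes. Pole, the catalytic subunit of epsilon and the most expressed by mean CPM, had 73.1 and 64.2 CPM with shNC against 68.2 and 59.5 CPM with shGm26917, with overlapping groups. Pole4, a small histone-fold subunit of epsilon, was the exception in sign, with 21.4 and 22.2 CPM with shNC against 24.8 and 26.2 CPM with shGm26917 (log2 fold change 0.22 ± 0.07, adjusted p = 0.063). Pold1, the catalytic subunit of delta, had the lowest value at -0.26 ± 0.10 (adjusted p = 0.1). For the mitochondrial polymerase, Polg had 37.4 and 36.7 CPM with shNC against 38.2 and 37.4 CPM with shGm26917, and the log2 fold changes of Polg and Polg2 were 0.03 and 0.04.

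The RAD9-RAD1-HUS1 clamp is loaded at damaged DNA by a RAD17 complex and activates the checkpoint kinase ATR. Of 4 clamp and loader genes, 2 rose and 0 fell, where 11.6% of all genes rose. Rad9b, the paralogue of the common clamp subunit RAD9A, had 6.97 and 7.31 CPM with shNC against 10.7 and 11.9 CPM with shGm26917. It rose by 0.62 ± 0.10 (adjusted p = 0.00664) and kept its call under all 13 other settings. Its exons share 1002 of 4322 bases (23.2%) with Pptc7 on the opposite strand, which had a log2 fold change of 0.20 (adjusted p = 0.0604). Rad1, the clamp subunit shared by both forms, had 10.3 and 11.1 CPM with shNC against 14.6 and 17.6 CPM with shGm26917. The shGm26917 libraries were further apart than the shNC libraries, and Rad1 rose by 0.56 ± 0.11 (adjusted p = 0.0123), though not past the threshold without the second shGm26917 library (adjusted p = 0.0647). Rad9a did not pass at -0.12 (adjusted p = 0.432). The Rad9b to Rad9a ratio of CPM was 0.655 and 0.671 in shNC and 1.03 and 1.26 in shGm26917. Per kilobase of exon, Rad9b was at 2.61 and Rad9a at 4.19 CPM in the shGm26917 mean. Rad17, the loader subunit and the most expressed of the group by mean CPM, had 32.6 and 26.6 CPM with shNC against 26.6 and 29.5 CPM with shGm26917, with overlapping groups.

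Of 5 genes with a mainly meiotic role, Mlh3 and Meiob were called higher (11.6% of all genes were), and the median log2 fold change was 0.24. Without Meiob, for the reason given below, 1 of 4 rose and the median was 0.10, and without the first shNC library the median of the 5 was 0.09. Mlh3, a MutL protein that resolves meiotic crossovers, had 11.3 and 8.05 CPM with shNC against 14.0 and 13.9 CPM with shGm26917. It rose by 0.52 ± 0.15 (adjusted p = 0.0412). The shNC libraries were far apart, and the call was lost without the second of them (log2 fold change 0.29, adjusted p = 0.0556) or without the first (0.0692) or second (0.0671) shGm26917 library. Meiob, a single-strand DNA-binding protein of meiotic prophase, was listed at 0.0628 and 0.544 CPM with shNC against 1.45 and 1.14 CPM with shGm26917. Its fitted log2 fold change was 1.22 ± 0.32 (adjusted p = 0.0303). This became 0.77 without the first and 1.67 without the second shNC library, and 2.096 at a pseudocount of 0.1 and 0.84 at a pseudocount of 1. The call was lost without the first shGm26917 library (adjusted p = 0.09). The table holds no gene under 1.003 CPM in its second-highest library, and Meiob met this limit through its shGm26917 libraries alone. A gene listed in that way had to be higher in shGm26917, so that its difference is a description. Psmc3ip and Mnd1 encode the HOP2-MND1 pair that helps recombinases to pair strands. Psmc3ip had a log2 fold change of -0.31 (adjusted p = 0.117) and Mnd1 of 0.24 (adjusted p = 0.238), so that the ratio of their CPM was 1.16 and 0.905 in shNC and 0.656 and 0.693 in shGm26917. Msh5, a meiotic MutS protein, had 1.38 and 1.13 CPM with shNC against 1.48 and 0.948 CPM with shGm26917.

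Homologous recombination was the largest group, with 16 genes, of which 1 fell and 0 rose, at a median log2 fold change of -0.05. Rad52, which anneals single strands, had 15.2 and 14.4 CPM with shNC against 11.5 and 11.3 CPM with shGm26917. It fell by 0.36 ± 0.09 (adjusted p = 0.0225) without overlap of the groups, and did not pass without the first (adjusted p = 0.0783) or the second shGm26917 library (0.115). Rad50, a subunit of the complex that first binds broken ends and the most expressed of the group by mean CPM, had 73.1 and 70.7 CPM with shNC against 78.5 and 67.5 CPM with shGm26917, with overlapping groups. BRCA1 and BRCA2 help to load the recombinase that invades the intact duplex. Log2 fold changes were -0.08 for Brca1 (adjusted p = 0.583) and 0.21 for Brca2 (adjusted p = 0.0787). Nearest to the threshold among the uncalled genes of the group was Rad51ap1, which aids strand invasion, at -0.29 (adjusted p = 0.0638).

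None of the 11 Fanconi anaemia pathway genes was called by limma at an adjusted p under 0.05, and 2 had an unadjusted p under 0.05, Fanci and Fancb. The median log2 fold change was 0.00, and 8 of the 11 lay within 0.2 of no change. FANCI and FANCD2 form the pair that is ubiquitinated at a crosslink. Fanci had 11.2 and 11.2 CPM with shNC against 13.3 and 14.2 CPM with shGm26917 (log2 fold change 0.28 ± 0.09, adjusted p = 0.057). Upper-quartile scaling or the replicate number as a block brought Fanci past the threshold (adjusted p = 0.0497 and 0.0423). Fancd2, the most expressed by mean CPM, had 26.0 and 25.8 CPM with shNC against 26.5 and 25.2 CPM with shGm26917, with overlapping groups and a 95% interval of the log2 fold change from -0.16 to 0.16. Of the core complex, Fancb and Fancl lay at 0.28 and 0.26, and Fance, Fancf, Fancg and Fancm between -0.10 and -0.09.

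Among the genes matched by name only, Ercc6l2, a helicase-like protein linked in humans to inherited bone marrow failure, had 41.1 and 41.5 CPM with shNC against 55.3 and 56.3 CPM with shGm26917. Replicates were nearly alike, and Ercc6l2 rose by 0.43 ± 0.06 (adjusted p = 0.00274), a call kept under all 13 other settings. Blmh, a cysteine protease named for breaking down bleomycin and the most expressed by mean CPM, had 73.0 and 62.9 CPM with shNC against 70.9 and 68.1 CPM with shGm26917. Ercc6l, a helicase of mitotic chromatin bridges, had a log2 fold change of -0.25 (adjusted p = 0.0591).

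**Figure D4:**
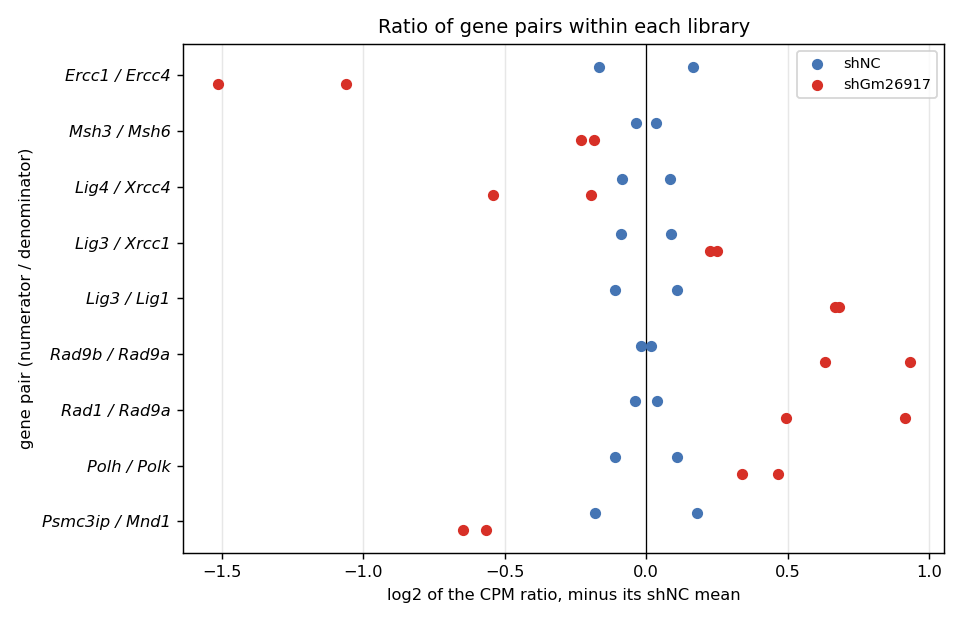
Log2 of the CPM ratio of 2 genes within each library, less the shNC mean of that ratio, for 9 pairs (blue, shNC; red, shGm26917; 1 point per library). The groups do not overlap in any pair, and Ercc1 to Ercc4 is the farthest from 0.

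A ratio of 2 genes within a library does not depend on library size. The pairs were subunits or binding partners, such as Ercc1 and Ercc4, or enzymes with related tasks, such as Lig3 and Lig1. All 9 pairs shown had groups without overlap (64.2% of single genes did). The list was chosen with the results for single genes known, so this count is a description and cannot be weighed against that share. Ercc1 to Ercc4 had the largest difference, -1.29 on the log2 scale, followed by 0.78 for Rad9b to Rad9a, 0.70 for Rad1 to Rad9a and 0.68 for Lig3 to Lig1. With 2 libraries against 2, an exact two-sided permutation test cannot give a p below 0.333, so the ratios are given as values without a test.

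Other genes of the same pathways that the names do not match were taken from a list of 117 by function, of which 102 were listed. Of these, 10 rose and 9 fell (18.6%, against 23.1% of all genes), with a median log2 fold change of 0.01. Pcna, the sliding clamp on which the polymerases and LIG1 work, had 92.5 and 91.6 CPM with shNC against 65.4 and 67.8 CPM with shGm26917 and fell by 0.46 (adjusted p = 0.00183). Chek1, the kinase downstream of ATR, had 34.6 and 35.0 CPM with shNC against 23.6 and 21.9 CPM with shGm26917 and fell by 0.60 (adjusted p = 0.00186). Also lower were Uhrf1, a reader of newly copied DNA that also senses crosslinks, by 0.52 on the log2 scale (adjusted p = 0.00218) and Mad2l2, a subunit of translesion polymerase zeta, by 0.50 (adjusted p = 0.00635). Mdc1, the mediator that binds marked chromatin at breaks, had 59.4 and 58.9 CPM with shNC against 78.4 and 77.6 CPM with shGm26917 and rose by 0.40 (adjusted p = 0.00295). Uvssa, a factor of transcription-coupled repair, rose by 0.56 (adjusted p = 0.00338), Smarcal1, which remodels stalled forks, by 0.40 (adjusted p = 0.00507), and Faap24, a DNA-binding partner of FANCM, by 0.76 (adjusted p = 0.00852). Hus1, which completes the clamp with RAD1 and RAD9, did not pass at -0.03 (adjusted p = 0.81). Of 17 further meiosis genes, only Prdm9 and Syce2 were listed, and neither passed.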

How the data were processed

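The RNA-seq libraries, 2 of shNC and 2 of shGm26917 FGSCs, were grouped by genotype label and numbered by title. The authors deposited 1 table with a CPM value per library; RSEM 1.2.28, Bowtie2 2.1.0, mm10 and edgeR are listed in the submitters' processing notes. The deposited columns of the authors' log2 fold change, linear fold, p-value and adjusted p-value were not used. Gene positions are those of GENCODE M21, with 78 of 79 equal in the table.

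CPM were transformed as log2(CPM + 0.5), which understates the change of low genes, and fitted in R 4.3.3 with limma 3.58.1, group as the only term, using a trended and robust empirical Bayes step. Benjamini-Hochberg adjustment covered all 12701 genes, and genes under an adjusted p of 0.05 were called. The fit was tested on simulated data. Ratios, lists and motifs were computed in Python 3.11.15.

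Values were given per library for every called gene reported, for the gene with the smallest p and the gene with the highest mean CPM of each role, and the 8 other pathway genes with the smallest p were named; Hus1, Prdm9, Syce2, the ratios and overlapping neighbors were chosen after values were seen. Members and lists were chosen with earlier results of these data known.

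Of the values under 2 CPM, 33.7% to 67.9% per library lay within 0.02 of a whole multiple of a fitted step, so reads were not recovered and depth is approximate. Alternatives were median-ratio or upper-quartile scaling, a pseudocount of 0.1 or 1, and library sizes without Gm26917, Gm42418 and mitochondrially encoded genes. Further ones were a filter of 5 CPM in 2 libraries, no trend or robust option, a replicate block, and each library left out. Chromosomes only, and the counts and medians without Meiob, were chosen after seeing the data. A few genes are not reported here, though they stay in the tests and counts.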

Additional observations from a re-analysis of the deposited data

How the results depend on the processing

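With 2 libraries a group, calls rested on a small spread. The shGm26917 libraries mattered most: with either left out, 8 of the 15 calls among the repair genes were kept and no other gene was called. With each library left out in turn, the repair genes that rose numbered 5 to 10 (10 in the full data) and those that fell 2 to 6 (5 in the full data). Over all genes the ranges were 752 to 1793 higher (1469) and 832 to 1735 lower (1461), and in the other pathway list 6 to 12 higher (10) and 4 to 11 lower (9). The median of the 6 genes matched by name only went from 0.02 to 0.11 without the first and -0.09 without the second shNC library. A fit that leaves a group with 1 library assumes that it varies like the others. Without the trend and robust option, 6 repair genes rose and 4 fell, with Lig1, Meiob, Mlh3 and Polh among those lost, while 929 of all genes rose and 918 fell, and 5 other pathway genes fell. The log2 fold changes of the called repair genes kept their direction under every alternative run, which was not followed gene by gene in the other pathway list or over all genes, and pseudocounts, scaling, library sizes, the filter and chromosomes only kept each of these counts within 1.5 times.

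The replicate numbers are shared between the groups without a stated pairing. With the replicate number as a block, 21 repair genes were called, 14 higher and 7 lower, all 15 of the calls among them, and 18 other pathway genes rose and 15 fell. The correlation of deviations between same-numbered libraries was 0.057 over 12701 genes, and the block is given as an alternative only.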
